A study of Mus musculus with 30 samples.

Results

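Retinal pigment epithelium (RPE) of the Mertk-/-V3 mouse line was compared with RPE of C57BL/6 wild type mice (B6 WT) at postnatal day 25 (P25) by bulk RNA-seq. The members were chosen by genotype and tissue label: 3 Mertk-/-V3 and 6 B6 WT RPE libraries, which are 9 of the 30 libraries of the series. The study set 3 Mertk knockout lines (V1, V2 and V3) against B6 WT in RPE and in bone marrow-derived macrophages (BMDMs), and asked whether lines made in different ways differ in gene expression. Of 55573 genes in the RPE table, 18832 had a mean of at least 10 normalized counts over the 18 RPE libraries and were tested.

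The Mertk-/-V3 line was made by CRISPR/Cas9 in fertilized C57BL/6NJ eggs with guides against exons 3 and 4 of Mertk, whereas V1 came from embryonic stem cells of 129P2 origin. The V2 line came from a floxed Mertk allele of C57BL/6NJ origin that an inducible Cre had deleted in the germ line. All libraries carry the strain label C57BL/6J, and the study's own genotyping described both the V2 and the V3 line as mixtures of the J and NJ substrains, with the larger NJ share in V3. B6 WT mice were bought from Jackson and bred in the same facility, and mice of both sexes were used. RPE cells were dislodged from the posterior eyecup and used directly, with no treatment in any group. The titles call the libraries biological replicates without naming animals, so p-values measure the spread between these libraries. B6 WT replicates 1 to 3 and 4 to 6 were examined as separate sets of controls, because the V3 line has replicates 1 to 3 alone.

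The RPE is a single pigmented layer that faces the photoreceptor outer segments, takes up the tips they shed each day, recycles the visual chromophore and carries nutrients from the choroid. MERTK is a receptor tyrosine kinase through which the RPE engulfs outer segments. It belongs to the TAM family with TYRO3 and AXL and is activated by GAS6 and protein S (Pros1), which bridge it to phosphatidylserine on the outer segment membrane. In macrophages MERTK takes up dying cells. The study proposes that TYRO3 provides redundancy for outer segment uptake in V2 and V3 mice, whose retinas it found preserved.

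The 2 targeted exons are shown because their loss defines the allele. Both were read from the GRCm38 reference on the plus strand of chromosome 2, exon 3 at chr2:128736563-128736663 (101 bases) and exon 4 at chr2:128738196-128738369 (174 bases), in a transcript of 19 exons.
Mertk exon 3: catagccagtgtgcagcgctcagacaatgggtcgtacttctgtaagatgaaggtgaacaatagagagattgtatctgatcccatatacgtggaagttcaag
Mertk exon 4: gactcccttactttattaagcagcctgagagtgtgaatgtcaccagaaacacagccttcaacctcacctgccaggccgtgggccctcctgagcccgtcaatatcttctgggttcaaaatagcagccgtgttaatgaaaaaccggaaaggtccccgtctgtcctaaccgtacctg
Together they hold 275 bases, which leaves a remainder of 2 after division by 3. The sequence that would follow from joining exon 2 to exon 5 is shown next, with the last 30 bases of exon 2 first and the first in-frame stop codon in capitals.
Predicted exon 2 to exon 5 junction: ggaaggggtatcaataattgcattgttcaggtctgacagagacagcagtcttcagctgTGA
The stop would be codon 166 of a frame that has 994 codons in the intact transcript, and it lies in exon 5. This is a reading of the reference: the allele's own sequence was not read here, and the deposited table holds 1 value per gene, not per exon.

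Mertk (ENSMUSG00000014361, chr2:128698956-128802894) checked the labels. Its level, in reads divided by the library's size factor (normalized counts), was 444, 1005 and 1106 in Mertk-/-V3 replicates 1, 2 and 3, against a lowest of 2638, a median of 3230 and a highest of 3924 over the 6 B6 WT libraries. The groups did not overlap, and V3 replicate 1 was the lowest. The log2 fold change was -2.01 ± 0.25 (SE; limma with Benjamini-Hochberg adjustment over the genes tested, adjusted p = 0.0022), so reads from the locus fell but were not lost. Fitted without the V1 and V2 libraries, the adjusted p was 0.065. These values are RNA reads over the whole gene and do not measure protein. By Western blot the study detected no MERTK in V2 or V3 tissues, RPE included. In a bulk sample, fewer cells of a type and less RNA per cell cannot be told apart.

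The other TAM receptors and their ligands overlapped between the groups. Tyro3 ranged from 2145 to 3577 in V3 and from 2765 to 4161 in B6 WT, a log2 fold change of -0.25 ± 0.21 (adjusted p = 0.61). Axl and the ligand Gas6 had log2 fold changes of 0.06 ± 0.13 and 0.00 ± 0.13, and both changed sign in some alternative fits. Pros1 stood at 0.28 ± 0.20 (adjusted p = 0.56). Of the 8 TAM genes tested, Mertk alone passed against the 6 B6 WT libraries and against replicates 4 to 6. Against replicates 1 to 3, 2 of the 8 passed, both lower, as 2.17% of all genes did.

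The libraries were checked against cell type markers before any other result. All 15 RPE markers, among them Rpe65 and Best1, were detected, and no listed marker of any type was at 0 in all 9 libraries. The sum of the RPE markers ranged from 535029 to 959364 normalized counts in B6 WT and from 309796 to 835116 in V3. The sum of the 10 rod photoreceptor markers, which an RPE preparation carries over from the attached retina, ranged from 35111 to 345531 in B6 WT and from 58927 to 411855 in V3. V3 replicate 1 had the lowest RPE sum and the highest rod sum of the 9 libraries. None of the 15 RPE markers and none of the 10 rod markers passed the limma test, at an unadjusted p under 0.05, or by edgeR or DESeq2.

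B6 WT replicates 1 to 3 carried more blood and surface epithelium signal than the other 6 libraries. The 6 erythroid markers, such as the globins, summed to between 17773 and 54563 in B6 WT replicates 1 to 3, between 7756 and 10307 in replicates 4 to 6 and between 4338 and 8089 in V3. The 15 surface epithelium genes, a list added after the values were seen, summed to between 265808 and 400834, between 73567 and 226163 and between 55284 and 165087 in the same order. Neither sum overlapped between replicates 1 to 3 and V3. Skeletal muscle markers ranged from 1549 to 17698 in B6 WT and from 2502 to 4667 in V3. Depth was 23417838 to 30196674 reads in B6 WT replicates 1 to 3, 14137666 to 18266704 in replicates 4 to 6 and 16476097 to 21573517 in V3.

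**Figure D1:**
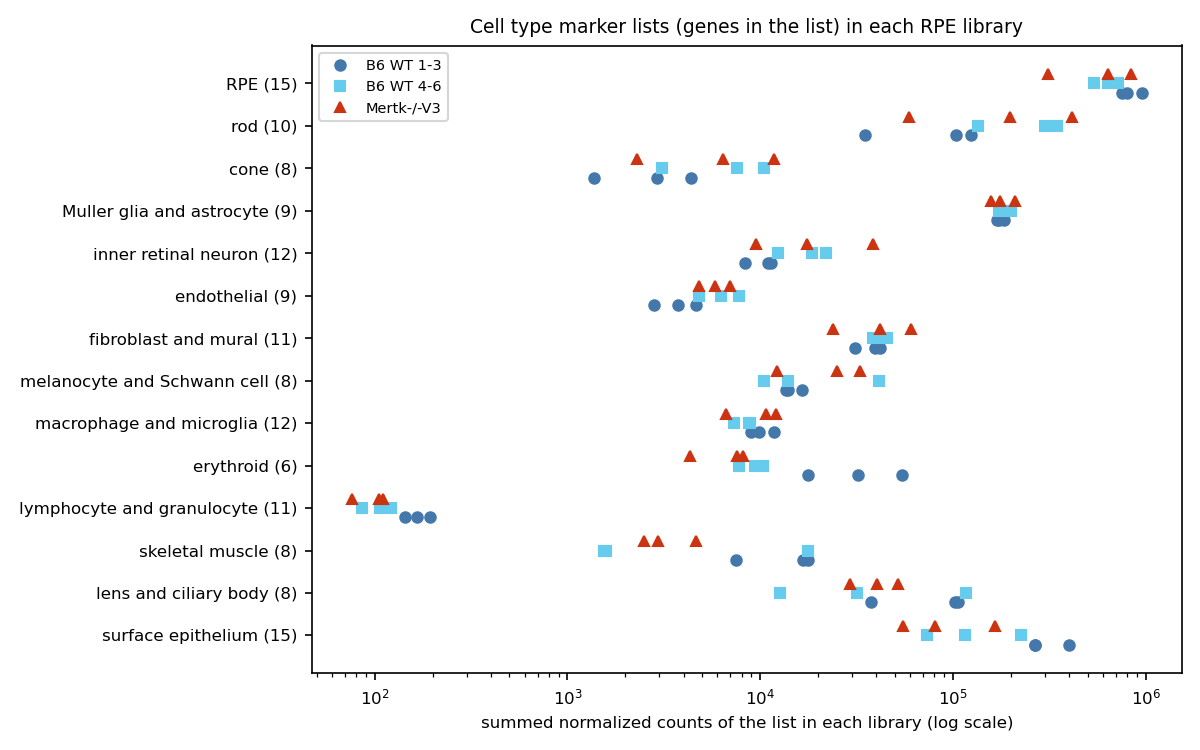
Summed normalized counts (log axis) of each marker list, with its number of genes, in each of the 9 libraries. Circles are B6 WT replicates 1 to 3, squares B6 WT replicates 4 to 6 and triangles Mertk-/-V3. In the erythroid row the circles start at 17773 and the triangles end at 8089.

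Against all 6 B6 WT libraries, 12 genes differed (0.0637% of the genes tested): 6 were higher in Mertk-/-V3 RPE (0.0319%) and 6 lower (0.0319%). Differentially expressed genes (DEGs) had to reach the fold threshold of the study's methods, 2.38-fold either way, at an adjusted p below 0.05. In all 12 the 3 V3 libraries lay outside the B6 WT range, which was so for 813 of the genes tested (4.32%). The higher genes were Cfi, AC149090.1, Wdfy1, C4b, Tmem181b-ps and Pisd-ps1, and the lower genes were Gm15446, 1010001B22Rik, Gm15247, Mertk, Lrmda and Cyp26b1. Without V3 replicate 1 the count was 13 (7 higher, 6 lower). It fell to 6 without V3 replicate 2, to 5 without V3 replicate 3 and to 6 when the 9 libraries were fitted alone.

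**Figure D2:**
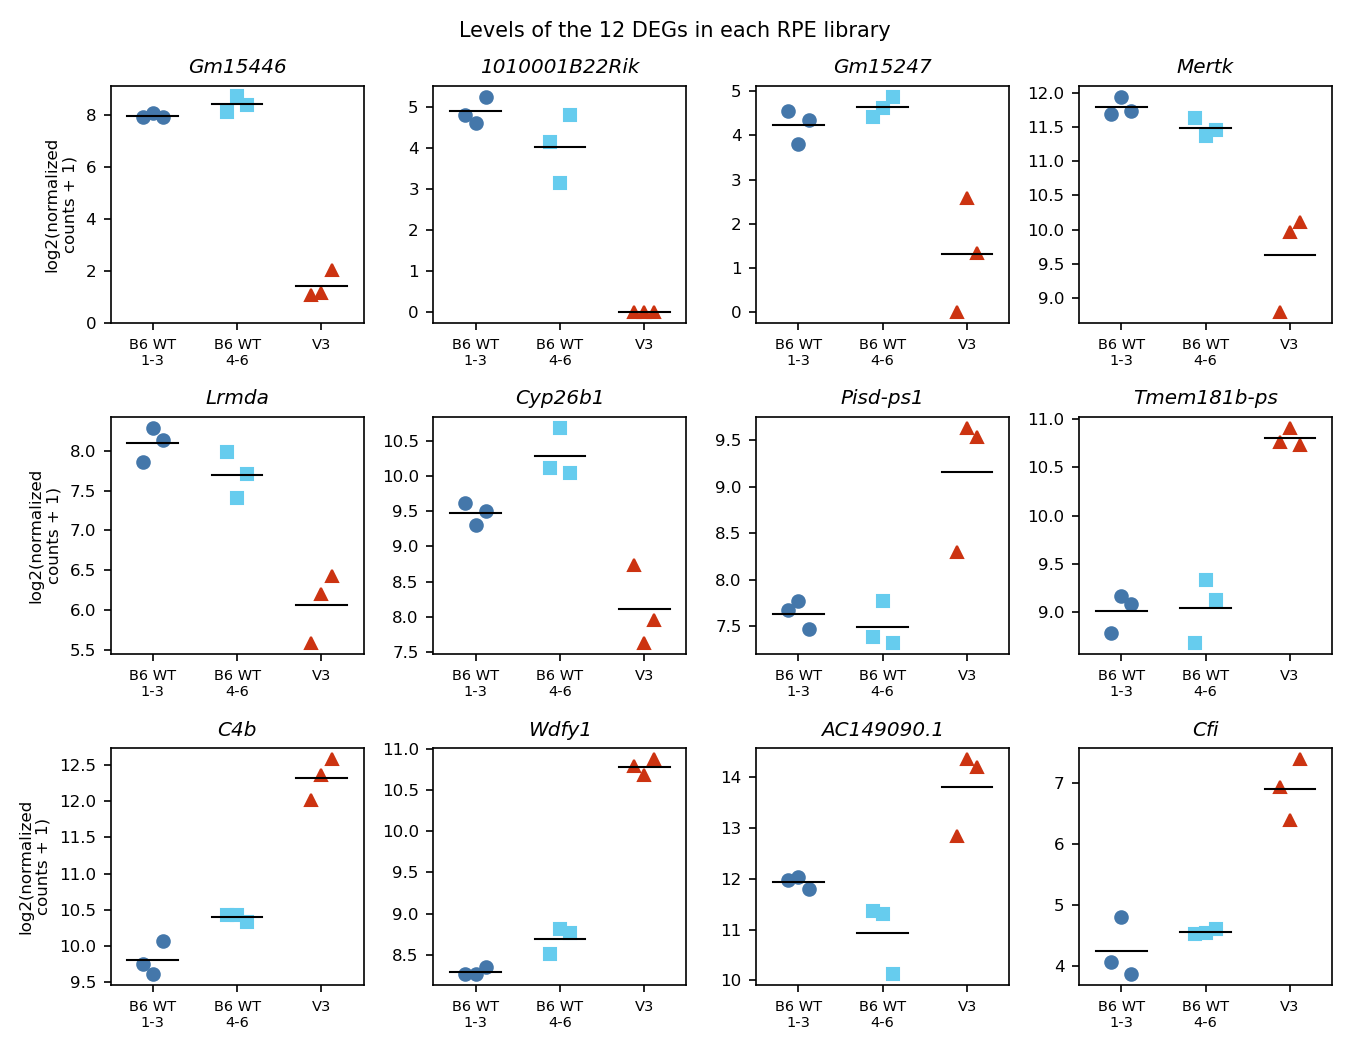
Log2(normalized counts + 1) of the 12 DEGs in each library, with the mean of each set as a line: 3 Mertk-/-V3 and 6 B6 WT, the latter split by replicate set. For each gene the V3 points lie wholly above or wholly below the B6 WT points, as for Wdfy1 with 1637 to 1880 in V3 and 307 to 448 in B6 WT.

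A pair of complement genes rose. Cfi (ENSMUSG00000058952, chr3:129835884-129875332) encodes complement factor I, the protease that cuts and inactivates C3b and C4b. Its level was 122, 83.5 and 168 in V3 replicates 1 to 3 against 13.6, 22.2 and 27.0 (lowest, median, highest) in B6 WT. All 3 V3 libraries were above every B6 WT library, with a log2 fold change of 2.51 ± 0.33 (adjusted p = 0.0036). C4b (ENSMUSG00000073418, chr17:34728380-34743882) encodes the C4 component of the classical and lectin pathways. It stood at 4142, 5254 and 6165 in V3 and at 777, 1182 and 1375 in B6 WT, again without overlap, with a log2 fold change of 2.22 ± 0.33 (adjusted p = 0.011). Its neighbour C4a, a near copy that shares 15.2% of the 100-base windows of C4b transcripts, overlapped between the groups (0.35 ± 0.22, adjusted p = 0.50). The call for C4b was lost without V3 replicate 2 (adjusted p = 0.11) and without V3 replicate 3 (0.13), and that for Cfi without V3 replicate 3 (0.054).

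Of 20 complement genes tested, those were the 2 that passed (none fell), and the list's median log2 fold change was 0.458 against -0.008 over all genes tested. In 7 of the 20 every V3 library was above every B6 WT library, against 2.75% of all genes. By adjusted p alone, 6 of the 20 were higher against replicates 1 to 3, as 4.18% of all genes were. Against replicates 4 to 6, 3 were higher, where 0.0637% of all genes passed in either direction. In neither set was a complement gene lower by adjusted p. The following members were picked for mention after their values were seen. Cd59a, an inhibitor of the membrane attack complex, ranged from 1127 to 1367 in V3 and from 624 to 845 in B6 WT (log2 fold change 0.80 ± 0.16, adjusted p = 0.15). Under the fold threshold, its adjusted p by limma was 0.0011 against replicates 1 to 3 and 0.017 against replicates 4 to 6. V3 BMDMs gave 0.77 (adjusted p = 0.046). V2 RPE, at 1130 to 1227, overlapped V3 in this gene. Serping1, the C1 inhibitor, ranged from 1323 to 1752 in V3 and from 878 to 1234 in B6 WT (0.47 ± 0.17, adjusted p = 0.45). The C1q chains C1qb and C1qc had log2 fold changes of 0.69 ± 0.21 and 0.77 ± 0.25 and Cfp, properdin, 0.70 ± 0.23, none of which passed. C3, the central component, overlapped, with 508, 254 and 159 in V3 against 111 to 316 in B6 WT.

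Wdfy1 (ENSMUSG00000073643, chr1:79702262-79776143), whose product binds phosphatidylinositol 3-phosphate on endosomes, rose with the smallest standard error of the 12. It was 1776, 1637 and 1880 in V3 and 307, 345 and 448 in B6 WT, a log2 fold change of 2.29 ± 0.19 (adjusted p = 1.549e-05). The V3 libraries differed among themselves by far less than they differed from B6 WT, and the call held in all 23 alternatives.

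The other 3 higher genes are an unplaced protein-coding model and 2 transcribed pseudogenes. AC149090.1 (ENSMUSG00000095041), on the unplaced scaffold JH584304.1, was 7332, 21155 and 18890 in V3 and 1111, 3099 and 4200 in B6 WT (2.37 ± 0.38, adjusted p = 0.019). Pisd-ps1, a copy of the phosphatidylserine decarboxylase gene Pisd (chr11:3125904-3131004), was 313, 792 and 737 in V3 and 159, 190 and 218 in B6 WT (1.59 ± 0.26, adjusted p = 0.023). In both, V3 replicate 1 was the lowest V3 library and still above B6 WT. Tmem181b-ps (chr17:6438524-6467022) was 1736, 1925 and 1695 in V3 and 407, 546 and 643 in B6 WT (1.78 ± 0.26, adjusted p = 0.011). It shares 29.6% of its windows with Tmem181a and a smaller share with Tmem181c-ps, so its reads may be split between these copies. Calls for all 3 were lost without V3 replicate 2 or without V3 replicate 3, and that for Pisd-ps1 also without B6 WT replicate 3, 4 or 6 (adjusted p of 0.054 to 0.063).

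Of the 6 lower genes, Gm15446 (ENSMUSG00000090015, chr5:109923400-109943936) changed the most. It held 1.1, 1.2 and 3.1 normalized counts in V3, from 4 reads in all, and 239, 270 and 421 in B6 WT, from 1415 reads. The V3 level was 0.638% of the B6 WT level (95% interval 0.174 to 1.64%, exact binomial, counting error only), and the log2 fold change was -6.76 ± 0.31 (adjusted p = 2.905e-09). 1010001B22Rik, a long noncoding RNA that starts 51.6 kb further along (chr5:109995511-109996398), had 0 reads in each V3 library and 7.9, 25.1 and 36.9 normalized counts in B6 WT, from 119 reads. It was at least 17.6-fold lower, taking 3 reads over the V3 group as the limit that a count of 0 allows (adjusted p = 1.549e-05). Both calls held in all 23 alternatives.

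Gm15247, an antisense RNA inside Mid1 on chromosome X (chrX:169985801-169986939), was 0, 5.0 and 1.5 in V3 and 12.9, 21.4 and 28.3 in B6 WT (-3.12 ± 0.45, adjusted p = 0.0095). These are few reads, with 0, 4 and 1 in the V3 libraries. Mid1, a microtubule-associated ubiquitin ligase transcribed from the opposite strand, overlapped between the groups (-0.06 ± 0.20), and the strand setting of the counting is not given in the sources used here. The call for Gm15247 was lost without V3 replicate 3 (adjusted p = 0.066).

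The remaining lower genes are a pair of protein-coding genes with known roles in pigment cells or retinoid metabolism. Lrmda (ENSMUSG00000063458, chr14:22019712-23056085), a gene of melanocyte differentiation that is mutated in a form of human oculocutaneous albinism, was 46.9, 72.3 and 84.8 in V3 and 169, 241 and 312 in B6 WT. The groups did not overlap (-1.83 ± 0.29, adjusted p = 0.018). Cyp26b1 (ENSMUSG00000063415, chr6:84571414-84593908), which degrades retinoic acid, was 424, 197 and 248 in V3 and 632, 915 and 1641 in B6 WT. It too did not overlap (-1.77 ± 0.31), and its adjusted p of 0.043 was the nearest to the threshold of the 12. The call for Lrmda was lost without V3 replicate 1 (adjusted p = 0.13), replicate 2 (0.11), replicate 3 (0.054) or B6 WT replicate 3 (0.054). That for Cyp26b1 was lost without V3 replicate 2 or 3, and without any B6 WT replicate other than 2 (adjusted p of 0.056 to 0.60 over these fits).

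The 12 genes lay on 10 chromosomes or scaffolds, with 2 each on chromosomes 5 and 17. Within 500 kb, Gm15446 and 1010001B22Rik were DEG neighbours of each other, and none of the other 10 had a DEG neighbour. AC149090.1 could not have one, with 0 genes tested in that window, and Cyp26b1 and Gm15247 had only 2 and 4. Of the 22 genes tested within 500 kb of Mertk, none was a DEG, and their median log2 fold change was -0.058. Anapc1 and Tmem87b, the nearest tested genes on either side of Mertk, had log2 fold changes of -0.11 and -0.03. Zfp932, 0.1 kb from 1010001B22Rik and sharing 16.2% of the windows of Gm15446, had 523 to 608 normalized counts in V3 and 528 to 684 in B6 WT (-0.04 ± 0.16). Dynlt1b, a dynein light chain gene 2.2 kb from Tmem181b-ps, was higher in every V3 library (199 to 233) than in every B6 WT library (91.7 to 142), but did not pass (0.92 ± 0.23, adjusted p = 0.36).

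A further gene, Esr1 (estrogen receptor alpha), had an adjusted p under 0.05 without reaching the fold threshold, which made 13 genes by adjusted p alone (0.069%), 7 higher (0.0372%) and 6 lower (0.0319%). It was 109, 108 and 168 in V3 and 59.2 to 72.1 in B6 WT (0.97 ± 0.16, adjusted p = 0.026).

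The counts depended on the set of B6 WT libraries. Against replicates 1 to 3, 602 genes were DEGs (3.2%): 193 higher (1.02%) and 409 lower (2.17%) in V3. Against replicates 4 to 6, 10 genes were DEGs (0.0531%), 4 higher (0.0212%) and 6 lower (0.0319%). All 10 were DEGs in the same direction against replicates 1 to 3 (0.0531% of the genes tested in both), where the V3 libraries are shared, and all 10 were among the 12 above. Pisd-ps1 and Tmem181b-ps were the 2 that did not pass against replicates 4 to 6 (adjusted p = 0.055 and 0.065), at log2 fold changes of 1.66 and 1.76. Between the B6 WT sets themselves, 49 genes were DEGs (0.26%), 47 of them higher in replicates 4 to 6 (0.25%).

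**Figure D3:**
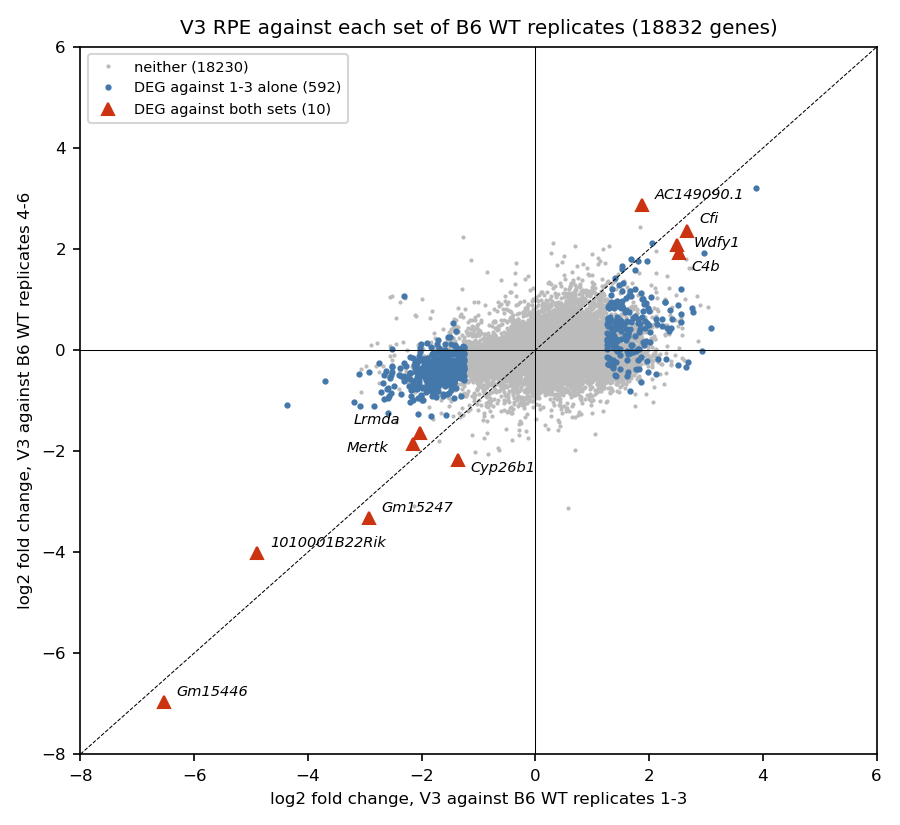
Log2 fold change of V3 against B6 WT replicates 4 to 6 (vertical) and against replicates 1 to 3 (horizontal) for the 18832 genes tested; both axes share the V3 libraries. Triangles are the 10 genes that are DEGs against both sets, each with the same sign on both axes, and the blue points, DEGs against replicates 1 to 3 alone, spread along the horizontal axis.

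Of the 602 genes, 369 (1.96% of those tested) had a log2 fold change under 0.5 in size against replicates 4 to 6, and 63 (0.335%) had the opposite sign there. No gene was a DEG against replicates 4 to 6 with a log2 fold change under 0.5 against replicates 1 to 3 (0.0%). Those that differed most against replicates 1 to 3 while staying under 0.5 against replicates 4 to 6 included transcription factors, a muscle protein and an esterase. Pitx1, a homeobox factor, had log2 fold changes of -2.93 and -0.44 against the sets in that order, and Barx2, another homeobox factor, -2.63 and -0.41. Pvalb, the calcium buffer of fast muscle, stood at -2.55 and -0.49. Aadac, a lipid-hydrolysing esterase, stood at -2.76 and -0.25, and the noncoding Gm3294 at 3.08 and 0.43. The 602 fell to 12 without B6 WT replicate 1, to 15 without replicate 2, to 209 without replicate 3 and to 15 without V3 replicate 2, and it rose to 1569 without V3 replicate 3. The erythroid and surface epithelium sums above also differed between V3 and replicates 1 to 3. The surface epithelium list had been chosen after these values were seen. By adjusted p, 6 of 6 erythroid and 13 of 15 surface epithelium genes were lower in V3 than in replicates 1 to 3, where 9.77% of all genes were. Against replicates 4 to 6 none passed by limma, edgeR or DESeq2, and none had an unadjusted p under 0.05. Their part in the 602 was not tested.

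Gene lists were described by counts and medians, beside the median log2 fold change over all genes of -0.008 against the 6 B6 WT libraries, 0.007 against replicates 1 to 3 and -0.035 against replicates 4 to 6. By adjusted p alone, 13.9% of genes passed against replicates 1 to 3 (4.18% higher, 9.77% lower) and 0.0637% against replicates 4 to 6. At an unadjusted p under 0.05, 11.1% passed against all B6 WT libraries (4.75% higher, 6.31% lower) and 5.72% against replicates 4 to 6.

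The macrophage, interferon-stimulated, MHC class II and chemokine lists had positive medians against both sets, with few or no calls. Those of disease-associated microglia genes (-0.056, then 0.059 and -0.082 against the separate sets) and of MHC class I genes (-0.113, then -0.285 and 0.104) changed sign with the set. None of the 22 macrophage and microglia genes passed against all B6 WT libraries by limma, edgeR or DESeq2 (8 were higher at an unadjusted p under 0.05), and their median was 0.507, then 0.509 and 0.391 against the separate sets. Ctss, a lysosomal protease of phagocytes, was 809, 727 and 512 in V3 and 330 to 481 in B6 WT, without overlap (0.83 ± 0.22, adjusted p = 0.42). Trem2, a microglial lipid receptor, was 78.1, 54.9 and 63.2 in V3 and 30.8 to 36.3 in B6 WT (0.93 ± 0.29, adjusted p = 0.45). Laptm5, a lysosomal protein of leukocytes, also stood above the B6 WT range (0.67 ± 0.18), and Cx3cr1, the fractalkine receptor, overlapped (0.66 ± 0.24). Against replicates 1 to 3, 3 of the 22 passed, all higher. The summed macrophage and microglia markers (12 genes, none at 0 in all libraries) ranged from 6620 to 12051 in V3 and from 7344 to 11751 in B6 WT, which overlap. One by one, 11 of the 12 markers had a log2 fold change above 0 (median 0.624, then 0.572 and 0.609 against the separate sets), 6 were higher at an unadjusted p under 0.05, and C1qb, C1qc and Tyrobp lay above every B6 WT library. None of the 12 passed by limma, edgeR or DESeq2. These markers thus moved with the macrophage and complement lists, with which they share genes, and their part in the result was not tested.

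Of 40 interferon-stimulated genes, 0 passed by limma or edgeR and 1 by DESeq2, with 8 higher at an unadjusted p under 0.05, and the median was 0.214. Mx1, an antiviral GTPase, was 102, 59.9 and 32.4 in V3 and 15.7 to 31.4 in B6 WT (1.31 ± 0.38, adjusted p = 0.44). Ifit1, a sensor of foreign RNA ends, was 815, 703 and 520 against 274 to 443 (0.82 ± 0.23, adjusted p = 0.44). Both were highest in V3 replicate 1, the library with the highest rod sum, and Mx2 did not overlap either (107 to 135 against 42.6 to 104).

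Of 18 genes of retinal stress and gliosis, 0 passed by limma, edgeR or DESeq2 and 5 were higher at an unadjusted p under 0.05 (median 0.297). Fgf2, a survival factor that stressed photoreceptors and glia make, was 1475, 491 and 399 in V3 and 203 to 308 in B6 WT (1.42 ± 0.64, adjusted p = 0.45). Serpina3n, a marker of reactive glia, was 4583, 4176 and 7255 against 2129 to 3654 (0.73 ± 0.30, adjusted p = 0.45). Socs3, a feedback inhibitor of cytokine signalling, was 270, 243 and 427 against 162 to 224, and Cebpd, an acute phase transcription factor, was 386, 196 and 279 against 119 to 208. The first 3 did not overlap between groups, while Cebpd did. The 9 Muller glia and astrocyte markers had a median of 0.483 (0.968 and -0.003 against the separate sets) and summed to between 157556 and 209537 in V3 and between 168611 and 199313 in B6 WT. The 12 inner retinal neuron markers had a median of 0.50 (1.37 and -0.066) and summed to between 9543 and 38472 in V3 and between 8374 and 21990 in B6 WT. Both sums overlapped, and the part of these cells in the list's values was not tested. The list's own median was 0.348 and 0.445 against the sets.

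Sterol biosynthesis was the gene list with the most members whose V3 libraries all lay below every B6 WT library. None of its 25 genes passed against the 6 B6 WT libraries by limma or edgeR (1 was lower by DESeq2), 18 were lower at an unadjusted p under 0.05, and the median was -0.529. There were 9 of these among the 25, against 1.57% of all genes. Cyp51, lanosterol demethylase, was 1803, 1511 and 1485 in V3 and 1896, 3196 and 3779 in B6 WT (-0.84 ± 0.26, adjusted p = 0.45). Idi1, isopentenyl-diphosphate isomerase, was 591, 486 and 528 against 672 to 1158 (-0.79 ± 0.25), and Stard4, a cholesterol carrier, 907, 720 and 753 against 1045 to 1638 (-0.77 ± 0.19). Against replicates 1 to 3, 22 of the 25 fell and 1 rose (median -0.828), whereas against replicates 4 to 6 none passed by limma, edgeR or DESeq2, 9 were lower at an unadjusted p under 0.05, and the median was -0.264. Idi1 illustrates it, at -1.08 (adjusted p = 0.0012) and -0.50 (adjusted p = 0.58).

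The cell cycle, oxidative phosphorylation and NRF2 lists also had calls against replicates 1 to 3 and none against replicates 4 to 6, and their medians moved by different amounts. Cell cycle genes had a median of -0.554, with 19 of 32 lower against replicates 1 to 3 (median -0.986) and none against replicates 4 to 6 by limma, edgeR, DESeq2 or unadjusted p (-0.104). Mcm3, a replicative helicase subunit, had log2 fold changes of -1.64 and -0.27 against the sets in that order, and Tyms, thymidylate synthase, -0.83 and -0.35. Oxidative phosphorylation genes had a median of -0.284, with 13 of 34 lower against replicates 1 to 3 (-0.368) and none against replicates 4 to 6 by these tools, where 11 were lower and 1 higher at an unadjusted p under 0.05 (-0.229), and 33 of the 34 log2 fold changes were below 0 against all B6 WT libraries. Cycs, cytochrome c, was 1264, 1167 and 1363 in V3 and 1455 to 1841 in B6 WT (-0.41 ± 0.13, adjusted p = 0.45). Targets of the antioxidant factor NRF2 had a median of -0.352, with 11 of 27 lower against replicates 1 to 3 and none against replicates 4 to 6 by any tool or by unadjusted p. Gpx4, which removes lipid peroxides, stood at -0.72 and -0.30, and Prdx1, a peroxiredoxin, at -0.71 and -0.36. The surface epithelium sums were higher in replicates 1 to 3, the set against which all 4 lists had calls. Library by library the sums did not always run together. V3 replicate 1 had more epithelium signal (165087) than B6 WT replicates 5 and 6 (115252 and 73567). Its oxidative phosphorylation sum (99834) was below both of theirs (110796 and 116084), as were its NRF2 and sterol sums. Its cell cycle sum (24579) lay between theirs. The part of surface epithelium in these lists was not tested.

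Lists of RPE function held few calls. By adjusted p against replicates 1 to 3, 3 of 18 visual cycle genes and 2 of 20 engulfment genes were lower. So were 3 of 31 lysosomal, 1 of 19 melanin and 1 of 23 PPAR and fatty acid oxidation genes, beside 9.77% of all genes. In that comparison 1 lysosomal gene was higher. The counts that follow are against all 6 B6 WT libraries. Of the 18 genes in the visual cycle list (median -0.344), the 1 that passed was Cyp26b1, which degrades retinoic acid rather than recycling the chromophore. Lrmda was the 1 of 19 genes of melanin and the melanosome to pass (median -0.231). Of 20 genes for outer segment binding and engulfment tested, 0 passed by limma, edgeR or DESeq2, with 2 higher at an unadjusted p under 0.05 (median -0.116). Msr1, a scavenger receptor in that list, was 21.2, 22.4 and 21.6 in V3 and 2.6 to 18.5 in B6 WT (1.03 ± 0.44, adjusted p = 0.45). Stab1, a second scavenger receptor, overlapped (0.43 ± 0.19). Of 22 ion channels and transporters, which include the monocarboxylate transporter Slc16a1 (-0.55 ± 0.30), 0 passed by any of the 3 tools and 0 had an unadjusted p under 0.05 (median -0.175). None of 31 lysosomal genes passed by limma, edgeR or DESeq2, with 2 at an unadjusted p under 0.05, both higher, and the median was -0.091. Of 23 PPAR targets and fatty acid oxidation genes, 0 passed by these tools and 2 were lower at an unadjusted p under 0.05 (median -0.266), with Acadm, a dehydrogenase of medium chain fatty acids, at -0.46 ± 0.16. Rod genes, 19 tested, had a median of 0.24, with 1.042 against replicates 1 to 3 and -0.501 against replicates 4 to 6, so the sign followed the set.

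**Figure D4:**
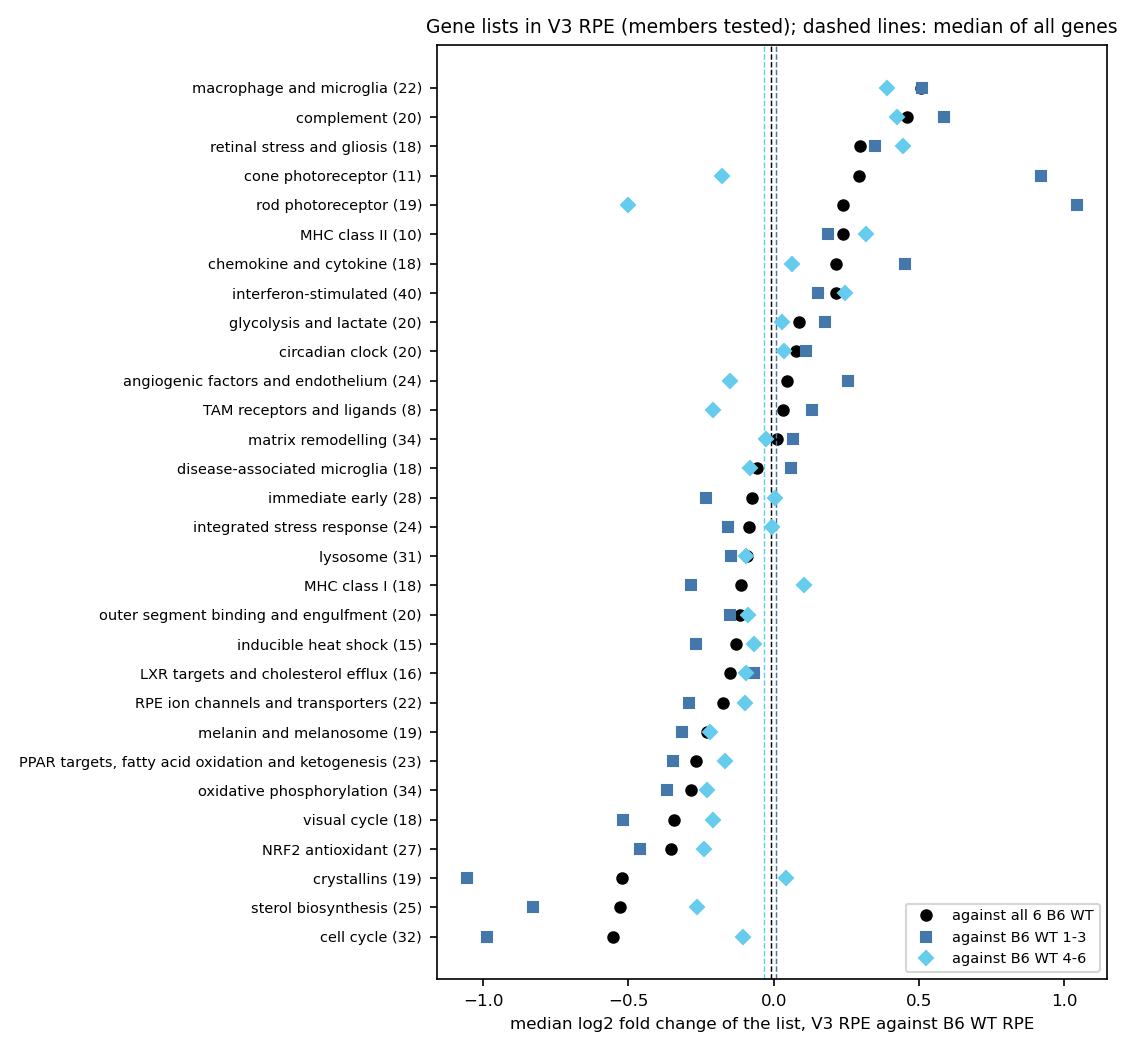
Median log2 fold change of each gene list in Mertk-/-V3 RPE against all 6 B6 WT libraries and against each set of 3. Complement and macrophage lists lie above 0 against both sets, sterol biosynthesis lies at -0.828 and -0.264, and the rod list changes sign between the sets.

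Genes reported to differ between C57BL/6J and C57BL/6N mice were examined because of the line's origin, with 13 tested. Wdfy1 rose and Gm15446 fell, as above, and no other member passed. Nnt, of which C57BL/6J mice carry a deletion, was low in every library, with 15.6, 23.7 and 15.4 in V3 and 3.7 to 20.4 in B6 WT. Crb1, the gene of the rd8 mutation of C57BL/6N mice, was 1073, 612 and 372 in V3 and 674, 1388 and 3639 in B6 WT, with overlap (-1.31 ± 0.63, adjusted p = 0.45). It passed in the fit with the rod marker level as a covariate (-1.44, adjusted p = 3.81e-05). Naip1, an inflammasome receptor gene, and Ide, insulin-degrading enzyme, overlapped as well, with log2 fold changes of -0.99 ± 0.52 and -0.37 ± 0.19.

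The V3 line was set against the other knockout lines to see which differences were its own. Against V2, 10 genes were DEGs (0.0531%), and 5 of them were among the 12: Gm15446, 1010001B22Rik, Mertk, Lrmda and Wdfy1. Against V1, 18 genes were DEGs (0.0956%), and 9 of them were among the 12, all but Mertk, C4b and Cfi. Gm15446, 1010001B22Rik, Lrmda and Wdfy1 thus differed in V3 from B6 WT, V2 and V1 alike, in comparisons that share the V3 libraries. Gm15446 was 256 to 296 in V2 and 196 to 584 in V1, and Wdfy1 was 351 to 460 and 295 to 584. Neither line's range overlapped that of V3 in these genes.

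The remaining genes were not DEGs against both lines. For AC149090.1, Pisd-ps1, Tmem181b-ps and Cyp26b1 the V3 range overlapped that of neither line, and the test against V2 fell short. AC149090.1 was 2416 to 4767 in V2 and 2172 to 3040 in V1 (V3 against V2 1.97 ± 0.44, adjusted p = 0.12), and Pisd-ps1 was 170 to 241 and 124 to 240 (1.43 ± 0.30, adjusted p = 0.11). Tmem181b-ps was 434 to 1126 in V2 and 430 to 767 in V1 (1.12 ± 0.30, adjusted p = 0.17). Cyp26b1, the lower gene among them, was 498 to 562 and 929 to 2142 (-0.92 ± 0.36, adjusted p = 0.29). Mertk was 3565 to 5311 in V2 and 919 to 1717 in V1, so that V3 was lower than V2 (-2.40, adjusted p = 0.0011) and did not differ from V1 by the test (-0.54, adjusted p = 0.42). These are reads over the whole gene, from a V2 allele that lacks a kinase domain exon and gave the study no detectable protein. Gm15247 was 0 to 0.86 in V2 and 14.6 to 39.8 in V1. C4b was 1961 to 3007 in V2 and 1735 to 7084 in V1, with log2 fold changes against B6 WT of 1.19 (adjusted p = 0.57) and 1.84 (adjusted p = 0.0038). Cfi was 21.2 to 39.6 in V2 and 51.4 to 166 in V1, at 0.53 (adjusted p = 0.95) and 2.04 (adjusted p = 0.0015) against B6 WT. V3 exceeded V2 in Cfi by 1.98 (adjusted p = 0.074), which did not pass.

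BMDMs of the same line, 3 Mertk-/-V3 and 3 B6 WT libraries, gave values that share no library with the RPE. There, 21 of 13420 genes were DEGs (0.156%). Of the 12 RPE genes 9 were measured in BMDMs, all 9 with the same sign, and 6 were DEGs in both: Gm15446, Gm15247, Mertk, Lrmda, Tmem181b-ps and Wdfy1. Wdfy1 was 1146, 1239.8 and 1151 in V3 BMDMs and 174, 195 and 200 in B6 WT (2.63 ± 0.10, adjusted p = 2.43e-09). Lrmda was 27.3, 16.0 and 25.7 against 171, 174 and 146 (-2.81 ± 0.18, adjusted p = 8.44e-07). Mertk was 651, 685 and 723 against 2414, 2649 and 2881 (-1.94 ± 0.06, adjusted p = 2.54e-10). In these 3 the groups did not overlap in either cell type; in BMDMs that was so for 25.4% of genes.

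Tmem181b-ps had a log2 fold change of 1.52 ± 0.21 in BMDMs beside 1.78 ± 0.26 in RPE, and Gm15247 of -2.38 ± 0.42 beside -3.12 ± 0.45. Gm15446 was 14.2, 1.1 and 2.4 in V3 BMDMs and 52.6, 67.7 and 59.6 in B6 WT (-3.67 ± 0.51, adjusted p = 0.0033). AC149090.1 and Pisd-ps1 passed by adjusted p in BMDMs, as 1.17% of genes did, but under the fold threshold, at 0.81 ± 0.07 and 0.85 ± 0.09. C4b was 26.2, 19.2 and 32.1 in V3 BMDMs and 9.0, 4.9 and 13.7 in B6 WT (1.46 ± 0.44, adjusted p = 0.12). Cfi, Cyp26b1 and 1010001B22Rik were below the minimum in BMDMs, with Cfi at 0 in all 6 libraries. Neighbours that were not DEGs in RPE and were in BMDMs included Mid1 at -2.41 ± 0.19 (adjusted p = 8.16e-06) and Dynlt1b at 1.44 ± 0.15 (adjusted p = 0.00017), while Zfp932, at -1.16 ± 0.20 (adjusted p = 0.014), was under the fold threshold there. The difference between the cell types was not tested.

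**Figure D5:**
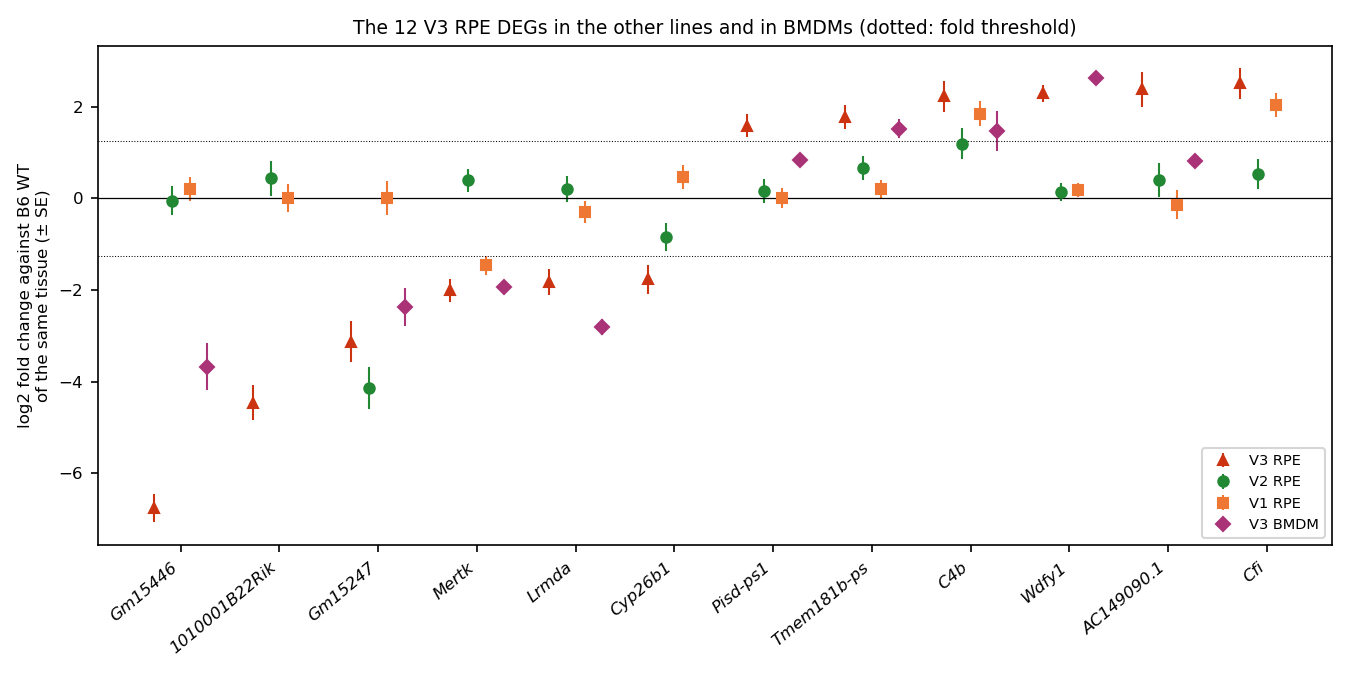
Log2 fold changes of the 12 DEGs of Mertk-/-V3 RPE against B6 WT, beside those of V1 and V2 RPE and of V3 BMDMs for the 9 genes measured there. The RPE columns share the B6 WT libraries. Wdfy1 and Gm15446 stand apart from 0 in V3 RPE and V3 BMDMs (2.29 and 2.63, -6.76 and -3.67) and lie near 0 in V1 and V2.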

How the data were processed

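RNA was extracted from RPE cells and BMDMs with the RNeasy Mini kit and sequenced as 150-base paired reads on a NovaSeq. The authors ran btrim to trim the reads and STAR to align them to GRCm38, counted them per gene and divided the counts by DESeq2 size factors. The tool used for counting, its strand setting and the annotation release are not given in the sources used here. The deposited values are this normalized signal, 1 value per gene and library, and each was a whole multiple of the value of 1 read (within 0.01), so reads could be recovered.

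The main test was limma 3.58.1 in R 4.3.3 (lmFit and eBayes with trend) on log2(value + 1), with 4 genotypes in 1 model over the 18 RPE libraries, so that all genotypes share 1 estimate of the spread. Genes with a mean of at least 10 were tested and p-values were adjusted over all of them by Benjamini-Hochberg. All fold changes are on the log2(value + 1) scale, which understates those of low genes. The replicate sets were compared in a 6-group model, and BMDMs in a model of their own over 12 libraries. edgeR 4.0.16 and DESeq2 1.42.0 on recovered reads, other filters, pseudocounts, covariates and left-out libraries were alternatives. The surface epithelium covariate and the fits with 1 B6 WT set were added after the data were seen.

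Genes named are Mertk, the TAM genes, every DEG, up to 4 members of each list by adjusted or else unadjusted p, substrain genes, DEGs shared with BMDMs, the genes that differed most between the replicate sets and the nearest neighbours of named genes. Esr1, the complement members singled out and Gm42031 fall outside this rule and were chosen after their values were seen. The groups, members and lists were chosen with earlier results of these data known. Gene symbols and coordinates come from GENCODE M21 (55480 of 55573 identifiers matched). Copies of the DEGs were searched as 100-base windows shared with transcripts of other genes, for all but AC149090.1, which has no transcript in the file used. In data simulated for the main comparison, limma recovered 157 of 200 genes changed by 2 on the log2 scale, among 18832, with 5 false calls. The simulation drew each gene on its own, without differences shared by many genes of a library. The false calls there do not give the error rate of the real comparison. V3 against V1 and V2 used the same model. Values of some list members are not reported here.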

Additional observations from a re-analysis of the deposited data

Results flagged for a closer look

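In 3 of 74 gene and group pairs examined, 1 library stood far from the other 5 of the 6 B6 WT RPE libraries, against a critical value of 0.625 for the gap as a share of the range. Chance gives about 1 in 20 such groups. C3 was 316.4 in B6 WT replicate 4, Ctss was 481.0 in the same library, and Naip1 was 937.2 in B6 WT replicate 1.

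In 4 of the 51 genes examined that were measured in both cell types, every V3 library lay on one side of B6 WT in RPE and on the other in BMDMs. The share over all genes measured in both was not computed. Many genes named here were chosen by their RPE p-values, so the count says nothing beyond the values of these genes. Taken singly, 4.32% of genes in RPE and 25.4% in BMDMs did not overlap between the groups. C1qb and C1qc had been picked for mention after their values were seen. C1qb had a log2 fold change of 0.694 in RPE and -0.04 in BMDMs, C1qc 0.772 and -0.055, Ctss 0.833 and -0.203, and Msr1 1.025 and -0.381. None of the 4 passed in either cell type, and the difference between the cell types was not tested.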

How the results depend on the processing

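Counts of DEGs moved with the processing more than the strongest genes did. Gm15446, 1010001B22Rik and Wdfy1 were called in all 23 alternatives of V3 against B6 WT RPE. Cyp26b1 lost its call in 13, Lrmda and Pisd-ps1 in 10 each, AC149090.1 and Gm15247 in 5, C4b and Tmem181b-ps in 4, and Mertk and Cfi in 2. The 12 became 34 with no filter, 6 in the 9 libraries alone, 1678 with array quality weights (the weights did not converge), 35 with the rod covariate, 7 with the surface epithelium covariate and 4 with B6 WT replicates 4 to 6 alone, the last 2 chosen after seeing the data, and 28 by DESeq2. With no filter the others became 28 (V2), 43 (V1), 366 (replicates 1 to 3), 22 (replicates 4 to 6) and 19 (both sets). By DESeq2 they became 40, 52 and 1604 for the first 3, and BMDMs 33, with 36 by edgeR. The BMDM fits by DESeq2 and edgeR used the 6 V3 and B6 WT libraries alone, and limma all 12. In the 6 RPE libraries compared alone the sets gave 8 and 2, and both together 2. Fewer libraries estimate the spread in those fits. The causes of all these shifts were not tested.

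Leaving out 1 library gave 5 to 13 DEGs against B6 WT, 12 to 1569 against replicates 1 to 3, 4 to 9 against replicates 4 to 6, 4 to 8 against both, 6 to 10 against V2, 10 to 51 against V1 and 16 to 41 in BMDMs. The V1 count was 51 without V3 replicate 1 and 10 without replicate 2. The BMDM count was 41 without B6 WT replicate 3. Counts against V2 fell to 6 without V2 replicate 3 or V3 replicate 3. Against replicates 4 to 6 they fell to 5 without B6 WT replicate 4, 4 without replicate 5 and 5 without V3 replicate 3, and against both sets to 6, 5, 4, 5 and 5 without B6 WT replicates 1, 4, 5 and 6 and V3 replicate 3.

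With the replicate number as a block the counts were 1270 against B6 WT, 74 against V2, 843 against V1 and 19 in BMDMs. Correlations between the deviations of same-numbered samples had both signs in each comparison. For V3 RPE they were -0.27, 0.14 and -0.24 with B6 WT, and -0.24, 0.17 and 0.18 with V2. They were 0.03, -0.09 and 0.02 with V1, and 0.36, -0.05 and 0.26 between the BMDM samples. Replicates 4 to 6 of B6 WT and V1, which the block also covers, have no V3 partner and were not in this check. These correlations thus cannot decide whether same-numbered samples share more than a number. The cause of the higher RPE counts was not tested.

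Signs turned for genes near 0. Gas6 was -0.025 with the Y-linked covariate, -0.0083 with the epithelium covariate, -0.088 with B6 WT replicates 4 to 6 alone, -0.00056 by edgeR and -0.059 to 0.061 without single libraries. Axl was -0.0079 with the epithelium covariate, -0.051 with replicates 4 to 6 alone and -0.076 to 0.17 without single libraries. Mid1 was 0.14 with array weights, 0.033 with the block and -0.15 to 0.055 without single libraries. Zfp932 was 0.042 with array weights, 0.066 with replicates 1 to 3 alone, 0.13 with the block and -0.088 to 0.020 without single libraries.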

Other observations

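Without the filter on low values, 34 genes were called against B6 WT, 28 higher and 6 lower. Several of those added rest on few reads, such as Prl2c3 with 1, 2 and 1 in the V3 libraries and 0 in each B6 WT library. Of those added, the highest level in V3 was that of Gm42031, a noncoding RNA on chromosome 8 (chr8:85125872-85132289), which was picked after its values were seen. It was 35.7, 23.7 and 17.0 in Mertk-/-V3 RPE and 0 to 3.7 in B6 WT RPE, and of the 21 DEGs of V3 BMDMs it had the largest positive log2 fold change, at 8.24 (adjusted p = 0.00034, limma).

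The gene with the most negative log2 fold change in V3 BMDMs was G530011O06Rik, within the span of Mid1 on chromosome X and near Gm15247 (-4.44, adjusted p = 2.971e-07, limma). Gm15726, which lies between them, stood at -3.87 (adjusted p = 0.0099).

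With the rod marker level as a covariate, 35 genes were called. Sulf2, a heparan sulfate editing enzyme of the extracellular matrix, was 1821, 1132 and 1303 in V3 and 413 to 748 in B6 WT, and passed in that fit (1.36, adjusted p = 0.0017) and not in the main one (1.41, adjusted p = 0.15). Tnfrsf25, a death receptor, was 91.5, 76.1 and 66.3 in V3 and 18.8 to 41.9 in B6 WT (1.41 with the covariate, adjusted p = 0.048).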
